A study of Mus musculus with 6 samples.

Results

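The genes described here make, sense and move cholesterol and fatty acids: 35 named genes, found by gene symbol among the 49585 genes of the expression table, with a row for all 35. They cover 4 genes of the SREBP sensing machinery, 18 enzymes of cholesterol synthesis (7 of the mevalonate arm and 11 of the sterol arm), the cholesterol carrier Stard4, 4 genes of LXR signalling and cholesterol efflux, and 8 genes of fatty acid synthesis. The study compared regulatory T cells (Tregs, CD4+ T cells that restrain immune responses) from WT and Bach2-cKO mice, in 3 libraries each, where Bach2 is a transcriptional repressor of lymphocytes. The mice of both groups were C57BL/6, 7 weeks old, and the spleen was the source. Cells were sorted as B220- CD4+ YFP+, with CD25+ added in the series' design text, and both groups were stimulated for 24 h in culture through CD3 and CD28 (plate-bound) before poly(A) RNA was sequenced. What drives the deletion and the YFP, which part of Bach2 is deleted, how many mice a library pools and whether replicates are separate mice is not stated, so p-values measure the spread between these libraries.

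In animal cells the SREBP proteins, SREBP2 (Srebf2) for cholesterol and SREBP1 (Srebf1) mainly for fatty acids, are transcription factors held in the endoplasmic reticulum. When membrane sterol falls, SCAP (Scap) escorts them to the Golgi, where they are cut and released to switch on the synthesis genes; when sterol is plentiful, INSIG proteins (Insig1) hold SCAP back. LXR receptors (Nr1h2) respond to oxidized cholesterol and switch on the exporters Abca1 and Abcg1 and the ubiquitin ligase Mylip. Stimulated T cells are known to raise lipid synthesis before they divide, and the mevalonate pathway is known to be needed for Treg function.

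Levels are FPKM, in which reads are divided by gene length and by library depth, so genes can be compared per length. Changes are log2 differences of FPKM + 1, the libraries labelled Bach2-cKO minus WT, from limma fitted to 13766 genes (1 FPKM or more in 3 or more libraries), with adjusted p-values (Benjamini-Hochberg) over all of them and a threshold of 0.05. Read totals recovered from the steps of the FPKM values were 27697735 to 43884431 per library, which makes a single read over 1 kb equal to 0.0228 to 0.0361 FPKM. Bach2 itself was read at 112, 111.4 and 99.4 FPKM in WT and at 88.9, 104.5 and 120.8 FPKM in the libraries labelled Bach2-cKO (limma adjusted p = 0.812). The groups overlapped, and a value over the whole gene also counts exons outside a deleted part, so this does not check the labels and every direction here rests on them. The Treg factor Foxp3 was at 104.2 to 153.5 FPKM in the 6 libraries, beside 8 B cell markers whose sum was 1000.3 to 1409.2 FPKM in WT and 1470 to 1891.2 in Bach2-cKO although the sort was B220-. In bulk RNA, a different share of cells of a type and a different RNA level per cell cannot be told apart.

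Of the 35 genes 8 rose in the libraries labelled Bach2-cKO: Insig1, Hmgcs1, Pmvk, Sqle, Lss, Cyp51, Msmo1 and Hsd17b7. Abcg1 fell, and 26 did not pass. Among all genes tested 7.02% rose and 8.31% fell. The 8 genes that rose did so by 1.17-fold to 1.56-fold in mean FPKM, and 7 of them are enzymes of cholesterol synthesis. None of the 18 enzymes of cholesterol synthesis fell with limma, with limma-voom or at an unadjusted p under 0.05. All 3 Bach2-cKO libraries lay above all 3 WT libraries for 13 of the 35 genes, against 15.5% of all genes tested, and below them for 3, against 20.1%. The median log2 change of the 35 was 0.20, beside -0.02 over all genes tested, and 25 of them were above 0. The count of 8 depends on single libraries: leaving out WT replicate 1, 2 or 3 gave 0, 1 (Insig1) or 6, and leaving out Bach2-cKO replicate 1, 2 or 3 gave 2 (Insig1 and Msmo1), 0 or 16. The 6 included Idi1 and Stard4, which are not among the 8. With Bach2-cKO replicate 3 left out, the share of all genes that rose was 8.84%. With any other single library left out that share was 3.58% to 5.35%, below the 7.02% of the full fit. Abcg1 passed in each of these fits except the 2 that left out WT replicate 1 or Bach2-cKO replicate 2, and no sign of the 9 called genes changed in any.

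**Figure D1:**
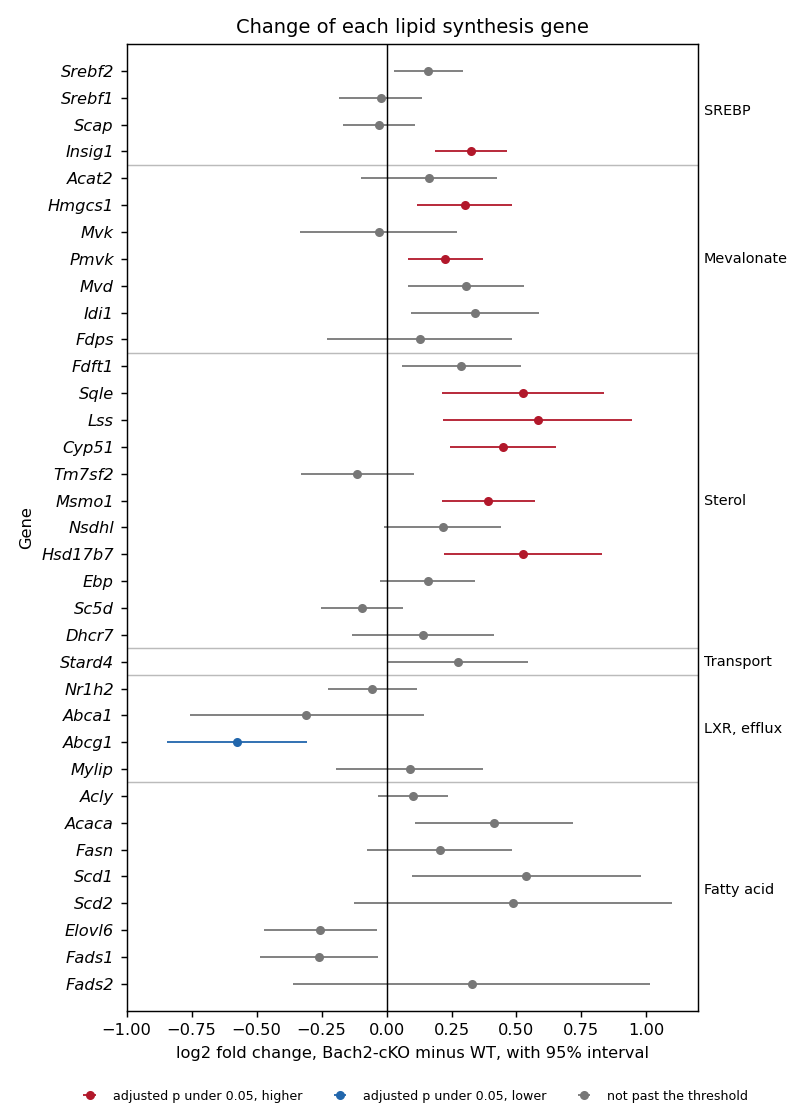
Log2 fold change (Bach2-cKO minus WT, x axis) of each of the 35 genes in order of pathway (y axis), with 95% intervals from limma, 3 libraries per group. Red marks the 8 genes that rose, blue marks Abcg1, which fell, and grey marks the 26 that did not pass; the 5 red genes of the sterol arm reach from 0.39 to 0.58.

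The promoters of 4 genes that rose are shown because the motifs bound by factors of this pathway were searched there. RefSeq windows of 250 bases before a transcription start (GRCm38.p6) were matched by symbol for 27 of the 35 genes. Bases that lie in annotated exons are left out, each stretch reads 5′ to 3′ on the gene's strand, and capitals mark the CCAAT box (CCAAT or its complement ATTGG) or the sterol regulatory element.
Hmgcs1, chr13:119690101-119690350, plus strand: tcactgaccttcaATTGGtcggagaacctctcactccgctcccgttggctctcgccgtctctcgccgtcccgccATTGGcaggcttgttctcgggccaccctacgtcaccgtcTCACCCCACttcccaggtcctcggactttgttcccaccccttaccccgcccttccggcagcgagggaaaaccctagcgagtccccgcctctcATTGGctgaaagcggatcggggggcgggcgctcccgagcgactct
Insig1, chr5:28071162-28071362, plus strand: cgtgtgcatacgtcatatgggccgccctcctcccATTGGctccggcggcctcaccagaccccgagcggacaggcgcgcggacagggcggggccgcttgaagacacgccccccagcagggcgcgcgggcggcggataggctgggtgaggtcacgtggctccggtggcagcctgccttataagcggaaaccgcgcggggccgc
Lss, chr10:76531355-76531587, plus strand: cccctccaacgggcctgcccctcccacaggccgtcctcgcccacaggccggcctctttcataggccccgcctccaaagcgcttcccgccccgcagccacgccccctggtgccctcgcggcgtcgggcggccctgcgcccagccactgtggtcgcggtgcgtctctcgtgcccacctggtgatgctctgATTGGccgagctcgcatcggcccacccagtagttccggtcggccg
Hsd17b7, chr1:169969242-169969455, minus strand: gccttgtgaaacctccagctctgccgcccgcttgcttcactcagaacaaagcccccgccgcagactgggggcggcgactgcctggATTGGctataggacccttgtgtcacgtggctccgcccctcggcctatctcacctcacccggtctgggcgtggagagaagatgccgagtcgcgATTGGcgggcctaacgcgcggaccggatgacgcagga
The sterol regulatory element TCACNCCAC, searched on both strands, stood in Hmgcs1 alone of the 27, at 137 bases before the start, and in 1.05% of all 32851 windows. CCAAT boxes, the site of NF-Y, stood in 20 of the 33 windows of these genes and in 33.8% of all windows. By gene, 19 of the 27 held at least 1 in any window. These were all 7 genes that rose and had a window, and also genes that did not pass. Some genes have several windows, and the share by gene over all genes was not computed. The counts by gene therefore have no matching share beside them. Pmvk, which rose, held a box in its first window and none in its second. In Fasn 2 matches on opposite strands overlapped. Other searches found the palindromic E-box TCACGTGA in 0 of the 27 genes (0.785% of windows), the LXR element (AGGTCA repeated after 4 bases) in 0 (0.0152%) and the MAF recognition element GCTGANTCA, to which Bach proteins bind with small Maf partners, in Dhcr7 (1.02%). A match is a description of letters and not a bound site.

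Among the sensors, Insig1 rose and the genes of the transcription factors did not pass. Insig1 (ENSMUSG00000045294, chromosome 5, 28071363 to 28078662, plus strand, GRCm38), itself a known target of SREBP2, read 51.1, 53.9 and 53.4 FPKM in WT and 64.8, 69.9 and 64.4 in Bach2-cKO. The groups did not overlap, and the means of 52.8 ± 1.52 and 66.4 ± 3.06 (SD, n = 3 each) differed by 0.32 on the log2 scale (SE 0.0599, limma adjusted p = 0.0116). Srebf2 (chromosome 15, 82147266 to 82205376) read 99.7, 100.1 and 98.8 FPKM in WT and 115.3, 113.9 and 105.4 in Bach2-cKO. Every Bach2-cKO library lay above WT for Srebf2, yet the log2 change of 0.16 (SE 0.0568) did not pass (limma adjusted p = 0.0987). Srebf1 (chromosome 11, 60199089 to 60222581), whose exons overlap Rai1 on the other strand by 109 bases, read 101.4, 98.1 and 102 FPKM in WT and 107.5, 98 and 91.8 in Bach2-cKO. Its groups overlapped, with a log2 change of -0.02 (95% interval -0.18 to 0.14, limma adjusted p = 0.857). Scap, the escort, was at 100.7 to 112.5 FPKM in WT and 103.9 to 105.3 in Bach2-cKO, with overlapping groups and a log2 change of -0.03. The level of Insig1 per unit of Srebf2 was 0.512, 0.539 and 0.54 in WT and 0.562, 0.614 and 0.611 in Bach2-cKO, higher in each Bach2-cKO library.

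In the mevalonate arm, which builds isoprene units from acetyl-CoA, 2 of 7 genes rose and none fell; 6 were above 0 and their median log2 change was 0.23. Hmgcs1 (chromosome 13, 119690462 to 119708086), HMG-CoA synthase, read 30.4, 30.9 and 33.2 FPKM in WT and 40.8, 41 and 35.4 in Bach2-cKO. Replicate 3 was the lowest Bach2-cKO library and still stood above WT; the means of 31.5 ± 1.52 and 39.1 ± 3.14 (SD, n = 3 each) differed by 0.30 (SE 0.0784, limma adjusted p = 0.0411). Pmvk (chromosome 3, 89454541 to 89469013), phosphomevalonate kinase, read 41.3, 42.4 and 39.3 FPKM in WT and 48.9, 49.5 and 46 in Bach2-cKO. It had the smallest change of the 8 genes that rose, 0.23 (SE 0.0622, limma adjusted p = 0.0484), with groups that did not overlap.

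Mvd and Idi1, the enzymes that make isopentenyl diphosphate and convert it to its isomer, had changes of the same size as Hmgcs1 and did not pass. Mvd read 19.8, 21.2 and 23.1 FPKM in WT and 28.8, 27.6 and 23.7 in Bach2-cKO, a log2 change of 0.31 (SE 0.0958, limma adjusted p = 0.071). Idi1 read 38.9, 42.8 and 48.6 FPKM in WT and 61.7, 54.5 and 49.6 in Bach2-cKO, a log2 change of 0.34 (SE 0.106, limma adjusted p = 0.0705). In both, WT replicate 3 was the highest WT library and Bach2-cKO replicate 3 the lowest of its group, and these 2 libraries nearly met. Idi1 shares 684 identical bases with the pseudogene Gm13502, listed at 0.899 to 2.01 FPKM. Acat2, Mvk and Fdps had overlapping groups and log2 changes of 0.16, -0.03 and 0.13. Acat2, at 13 to 18.8 FPKM, is 98.7% identical over 445 bases to Tcp1, listed at 130 to 159 FPKM. It is also 97.7% identical over 1477 bases to Acat3, listed at 0.305 to 1.15 FPKM, so the level of Acat2 is uncertain. Fdps, farnesyl diphosphate synthase, was the lowest enzyme of the arm at 3.32 to 4.82 FPKM; it is 98.9% identical over 1062 bases to the pseudogene Gm3571, listed at 3.38 to 6.91 FPKM, so its level is uncertain.

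In the sterol arm, which turns squalene into cholesterol, 5 of 11 genes rose and none fell; 9 were above 0 and their median log2 change was 0.29. The 5 were Sqle, Lss, Cyp51, Msmo1 and Hsd17b7, and they include the 2 steps that follow squalene. Sqle (chromosome 15, 59315077 to 59331192), squalene epoxidase and a rate-limiting step of the arm, read 19.6, 19 and 22.2 FPKM in WT and 33.3, 32.5 and 23.8 in Bach2-cKO. Lss (chromosome 10, 76531588 to 76557138), lanosterol synthase, read 14.8, 13.8 and 14.9 FPKM in WT and 25.3, 25.7 and 16.8 in Bach2-cKO. Both genes were high in Bach2-cKO replicates 1 and 2 and only just above WT in replicate 3. The log2 change was 0.525 for Sqle (SE 0.133, limma adjusted p = 0.0373). For Lss it was 0.58 (SE 0.155, limma adjusted p = 0.0443), with means of 14.5 ± 0.628 and 22.6 ± 5.03 FPKM (SD, n = 3 each), the largest rise among the 35.

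Cyp51, Msmo1 and Hsd17b7 act next, on the methyl groups and the 3-keto group of lanosterol products. Cyp51 (chromosome 5, 4081145 to 4104746, minus strand), lanosterol demethylase, was the most abundant of the 18 synthesis enzymes: it read 83.2, 85.3 and 95.5 FPKM in WT and 127, 127.1 and 107.5 in Bach2-cKO. Its means of 88 ± 6.58 and 120.5 ± 11.3 (SD, n = 3 each) differed by 0.45 (SE 0.0875, limma adjusted p = 0.0144); 166 exon bases overlap Akap9 on the other strand. Msmo1 (chromosome 8, 64718139 to 64733792, minus strand), the sterol methyl oxidase, read 36.3, 38 and 43.1 FPKM in WT and 49.5, 51.9 and 53.2 in Bach2-cKO. It was 1 of 2 cholesterol synthesis enzymes for which replicate 3 was not the lowest Bach2-cKO library, and its change was 0.39 (SE 0.0770, limma adjusted p = 0.0147). Hsd17b7 (chromosome 1, 169949535 to 169969241, minus strand), the sterol keto reductase, read 9.31, 9.75 and 12.3 FPKM in WT and 16.5, 16.6 and 13.3 in Bach2-cKO. WT replicate 3 was the highest WT library here as in Cyp51 and Msmo1, the groups did not overlap, and the change was 0.525 (SE 0.131, limma adjusted p = 0.0351).

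The other 6 genes of the sterol arm did not pass. Fdft1, squalene synthase, read 17.4, 16.2 and 16.8 FPKM in WT and 22.1, 22.4 and 18 in Bach2-cKO. Its groups did not overlap, with a log2 change of 0.29 (SE 0.0979, limma adjusted p = 0.0903); it shares 774 exon bases with Ctsb on the other strand, at 57.2 to 63.9 FPKM, and the sources used here do not say whether counting used strand. Nsdhl (0.22), Ebp (0.16) and Dhcr7 (0.14) had positive log2 changes with overlapping groups. Tm7sf2 (-0.11), a sterol reductase whose exons share 532 bases with Vps51 on the same strand, and Sc5d (-0.095), a desaturase near the end of the pathway, had negative ones. Stard4, which carries cholesterol between membranes, read 36.5 to 50.8 FPKM in WT and 49.6 to 55.3 in Bach2-cKO, an overlapping 0.28 (limma adjusted p = 0.154).

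**Figure D2:**
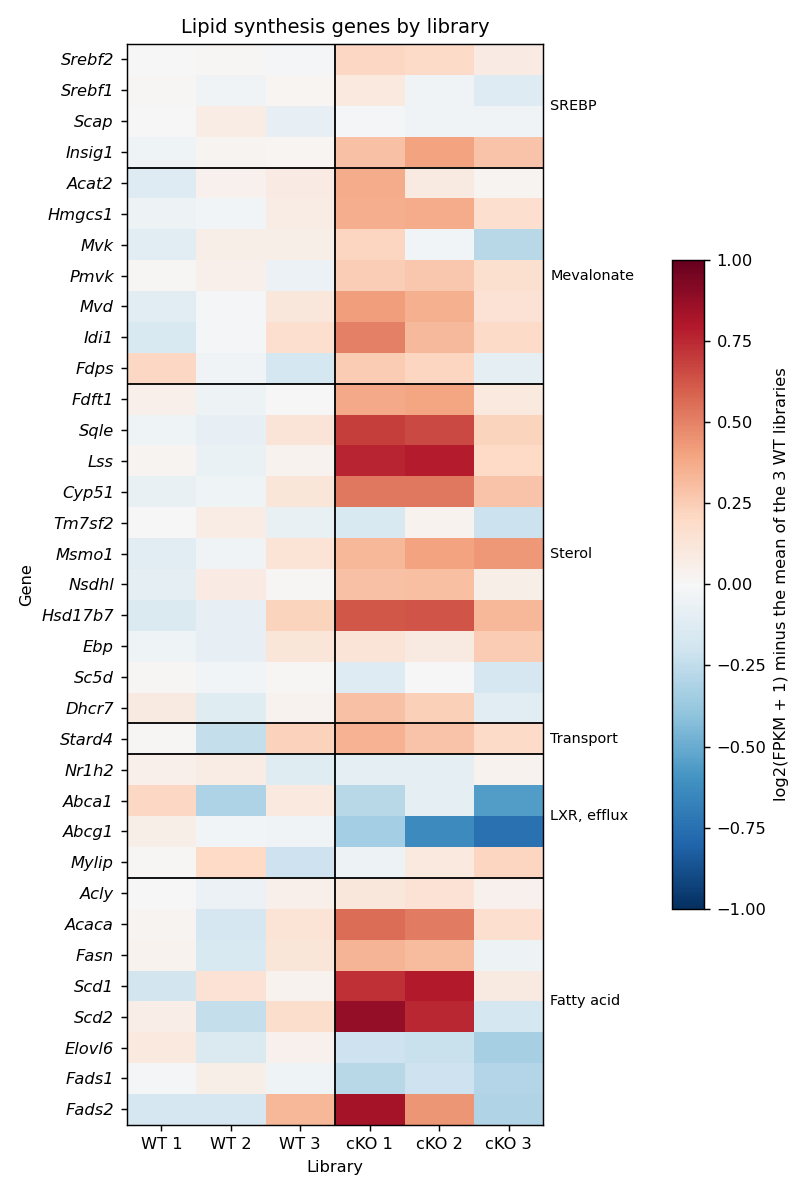
Each of the 35 genes (rows, by pathway) in each of the 6 libraries (columns), coloured by log2(FPKM + 1) minus the gene's WT mean. Most cholesterol synthesis rows are higher in Bach2-cKO replicates 1 and 2 than in replicate 3, which was the lowest of its group for 16 of these 18 genes.

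On the efflux side, Abcg1 fell and the other 3 genes did not pass. Abcg1 (chromosome 17, 31057698 to 31115777), which exports cholesterol to high-density lipoprotein, read 17, 16 and 15.9 FPKM in WT and 12.7, 10.1 and 9.32 in Bach2-cKO. Every Bach2-cKO library was below every WT library; the means of 16.3 ± 0.610 and 10.7 ± 1.76 (SD, n = 3 each) differed by -0.57 (SE 0.115, limma adjusted p = 0.016), the largest fall of the 35. Abca1, its relative that loads lipid-free apolipoprotein, read 2.86, 1.7 and 2.56 FPKM in WT and 1.75, 2.13 and 1.27 in Bach2-cKO. These groups overlapped at a low level, and the log2 change of -0.31 had a 95% interval of -0.76 to 0.14 (limma adjusted p = 0.329). Nr1h2, which encodes LXR beta, was the most abundant of the 35 genes at 165.3 to 188.9 FPKM, with a log2 change of -0.055. Mylip, a ubiquitin ligase induced by LXR, was at 15.2 to 20.7 FPKM with a change of 0.09. The 4 genes had a median log2 change of -0.18. Of 5 further LXR genes, 4 were tested and 1 rose: Lpcat3, a phospholipid acyltransferase, at 40.1, 39.2 and 42.6 FPKM in WT and 47.6, 50.8 and 47 in Bach2-cKO (0.25, SE 0.0634, limma adjusted p = 0.0379). Lpcat3 passed without Bach2-cKO replicate 3 and missed the threshold without any 1 of the other 5 libraries. Nr1h3, which encodes LXR alpha, was at 0.492 to 1.11 FPKM and was not tested.

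Of the 8 fatty acid genes none passed in either direction with limma; the unadjusted p was under 0.05 for Acaca, Scd1, Elovl6 and Fads1, and limma-voom on the recovered reads called Acaca higher. Without Bach2-cKO replicate 3, limma called 4 of the 8 higher (Acaca, Fasn, Scd1 and Scd2). Their median log2 change was 0.27 and 6 were above 0. Acaca, acetyl-CoA carboxylase and the committed step, read 10.8, 9.32 and 11.7 FPKM in WT and 16, 15.6 and 12 in Bach2-cKO. Its groups did not overlap, although replicate 3 of the 2 groups differed little, and the change was 0.41 (SE 0.131, limma adjusted p = 0.0742). Fasn, fatty acid synthase, read 62, 54.3 and 66 FPKM in WT and 77, 75.8 and 58.5 in Bach2-cKO (0.20, SE 0.120, limma adjusted p = 0.298). Acly, which supplies cytosolic acetyl-CoA to both pathways, was the most abundant of the 8 at 133 to 143.6 FPKM in WT and 142.8 to 153.2 in Bach2-cKO (0.10).

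Scd1 and Scd2, the desaturases that make monounsaturated fatty acids, both lie on chromosome 19 (44394451 to 44407709 and 44293676 to 44306864) and share 623 bases at 95.5% identity. Scd1 read 12.6, 16.1 and 14.8 FPKM in WT and 24.6, 25.7 and 15.4 in Bach2-cKO (0.54, SE 0.189, limma adjusted p = 0.0984). Scd2 read 27.5, 22.1 and 29.8 FPKM in WT and 49.2, 45 and 23.2 in Bach2-cKO, with means of 26.5 ± 3.98 and 39.1 ± 14 (SD, n = 3 each). In both, Bach2-cKO replicate 3 lay within the range of WT and replicates 1 and 2 far above it; the log2 change of Scd2, 0.49, had a 95% interval of -0.13 to 1.10 (limma adjusted p = 0.258). Fads2, the delta-6 desaturase, read 1.72, 1.72 and 2.85 FPKM in WT and 4.45, 3.15 and 1.48 in Bach2-cKO: replicates 1 and 2 lay above every WT library, replicate 2 only just, and replicate 3 below every one.

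Fads1 and Elovl6 pointed the other way. Fads1, the delta-5 desaturase of polyunsaturated fatty acids, also encoded on chromosome 19, read 6.19, 6.57 and 6.04 FPKM in WT and 5, 5.28 and 4.93 in Bach2-cKO. Elovl6, which lengthens palmitate, read 14.6, 12.2 and 14 FPKM in WT and 11.6, 11.5 and 10.6 in Bach2-cKO. Every Bach2-cKO library was below WT for both, and neither log2 change passed: -0.26 for Fads1 (SE 0.0969, limma adjusted p = 0.117) and -0.26 for Elovl6 (SE 0.0935, limma adjusted p = 0.11). The ratio of Fads1 to Fads2 was 3.59, 3.83 and 2.12 in WT and 1.12, 1.68 and 3.33 in Bach2-cKO, so the groups overlapped through replicate 3. Of 13 further fatty acid genes 11 were tested and 1 rose: Acsl4, which activates polyunsaturated fatty acids, at 24.5, 22.3 and 27.2 FPKM in WT and 31.9, 31.3 and 31.4 in Bach2-cKO (0.35, SE 0.0816, limma adjusted p = 0.0288). It did not pass without WT replicate 1 or 2 or Bach2-cKO replicate 1 or 2 (adjusted p from 0.0717 to 0.0943). The median log2 change of these 11 was -0.03.

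**Figure D3:**
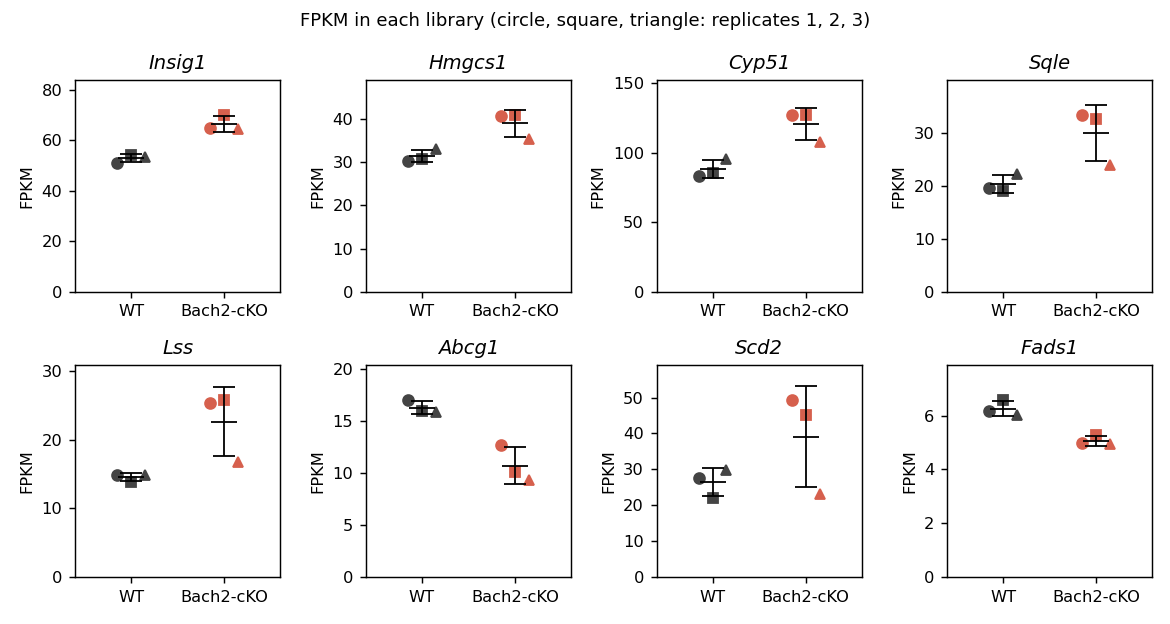
FPKM (y axis, from 0) of 8 genes in the WT and Bach2-cKO libraries (x axis), with 1 point per library, the symbol giving the replicate, and the mean with bars of 1 SD (n = 3 each). Bach2-cKO replicate 3 stands apart from replicates 1 and 2 for Sqle, Lss and Scd2 and lies inside the WT range for Scd2 (23.2 FPKM), while Insig1 lies above WT and Abcg1 and Fads1 lie below it in all 3 Bach2-cKO libraries.

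Bach2-cKO replicate 3 differed from the other 2 across the whole set. It was the lowest of the 3 Bach2-cKO libraries for 30 of the 35 genes, against 35.9% of all genes tested. Among the 25 genes with a change above 0 it was the lowest for 22, against 46.3% of all genes above 0. Summed over the 18 cholesterol synthesis enzymes, the level was 482.7, 489.2 and 527.8 FPKM in WT and 646.5, 637 and 558 in Bach2-cKO, with no overlap. Over the 8 fatty acid genes it was 273.9, 255.3 and 288.9 FPKM in WT and 337.4, 335.2 and 268.9 in Bach2-cKO, where replicate 3 fell inside the WT range.

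Cell cycle genes were ordered in the same way. The 8 listed (among them Mki67 and Top2a) summed to 470.4, 483.6 and 626.7 FPKM in WT and 774.1, 729 and 503.4 in Bach2-cKO, again with replicate 3 inside the WT range. All 8 had a log2 change above 0, with a median of 0.48; limma called none (5 at an unadjusted p under 0.05) and limma-voom called none. With the mean log2 level of these 8 genes as a covariate, a fit chosen after seeing the data, Abcg1 alone of the 35 passed. Among all genes tested 388 rose (2.82%) and 471 fell (3.42%) in that fit. The 9 called genes kept their sign, with changes 0.608 times as large at the median and standard errors 0.89 times. The 8 genes that rose kept a positive change in that fit, from 0.17 for Hmgcs1 to 0.36 for Msmo1, with Cyp51 at 0.27 (limma adjusted p = 0.0507). The median log2 change of the fatty acid genes turned to -0.05 and that of the cholesterol synthesis enzymes was 0.14.

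**Figure D4:**
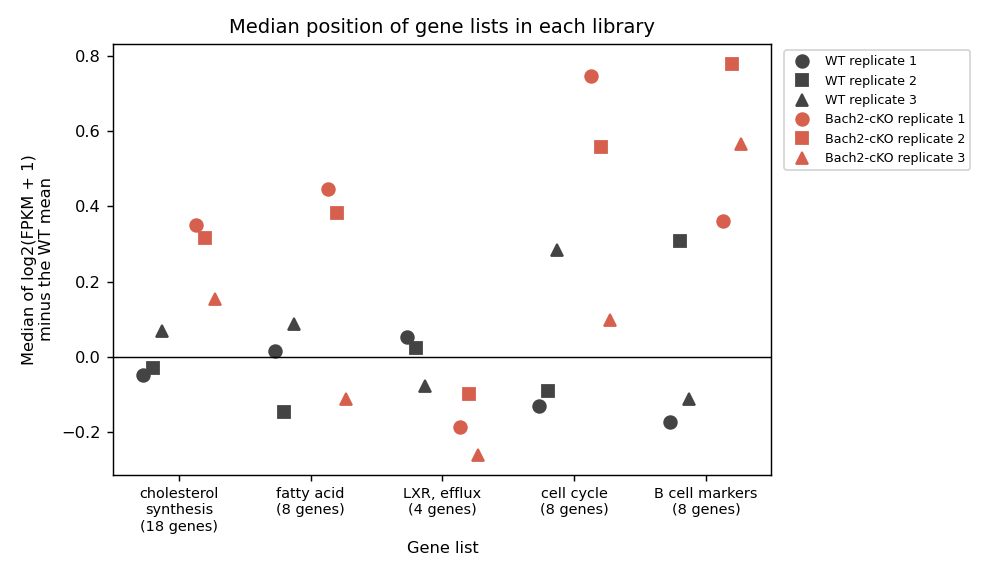
Median over the genes of a list of log2(FPKM + 1) minus the gene's WT mean (y axis), for 5 lists (x axis), with 1 point per library and the symbol giving the replicate. Bach2-cKO replicate 3 lies above all WT libraries for cholesterol synthesis, and inside the WT range for fatty acid and cell cycle genes.

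Markers of other cells moved with the group as well. Among the 8 B cell markers Ms4a1, Pax5 and Cd22 rose, and all 8 were above 0, with a median log2 change of 0.56. Both CD8 T cell markers rose, their sum being 40.2 to 44.2 FPKM in WT and 53.8 to 99.3 in Bach2-cKO. Of the plasma cell markers 2 of 3 tested rose. All 4 listed, tested or not, summed to 28.9 to 36.5 FPKM in WT and 55 to 76.4 in Bach2-cKO. With limma Cd3d alone of 3 T cell genes fell and Il2ra alone of 4 Treg genes rose. With limma-voom 2 of the 3 T cell genes fell and 2 of the 4 Treg genes rose. The 3 tested myeloid, 1 tested NK and 3 tested erythroid markers did not pass with limma. Of these 2 had an unadjusted p under 0.05, and limma-voom called Eomes, listed here with the NK cell markers, higher. All listed markers, tested or not, summed to 9.33 to 40.7 FPKM (7 myeloid), 6.24 to 17.1 (3 NK) and 160.4 to 882.5 (3 erythroid) over the 6 libraries. Csf1r and Cd14 were at most at 0.302 FPKM, and no marker was at 0. With the mean log2 level of the 8 B cell markers as a covariate none of the 35 genes passed, while 29 genes rose and 35 fell among all tested. In that fit the 9 called genes kept their sign, their changes were 1.04 times as large at the median and their standard errors 1.99 times. The part of B cells, of other cells and of cycling cells in the changes of the 35 genes was not tested.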

How the data were processed

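RNA was measured in 6 libraries of sorted, stimulated splenic Tregs, 3 labelled WT and 3 labelled Bach2-cKO, grouped by the labels. The submitters' processing notes name HISAT2 2.0.5, featureCounts 1.5.0-p3 and the build mm9; for the order of steps, filters, annotation and use of strand, nothing is given in the sources used here. FPKM values per gene were deposited by the authors, in 1 table and in 6 single-library files that equal its columns; 0 other columns of values were present. Positions equal those of GENCODE M21 (GRCm38) for 91.5% of the identifiers found there, and are given on that build.

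All genes above 0 gave whole reads from the steps of their FPKM values (tolerance 0.001), which were used for depth and for limma-voom. Of these 28530 genes, 11267 did so at the annotated length. For the other 17263 the shortest length that gave whole reads was taken, which can understate the reads of a gene. The recovered reads made up 99.77% to 99.80% of each library's total. The main test was limma 3.58.1 (R 4.3.3; empirical Bayes with a trend, two-sided) on log2(FPKM + 1), which understates the change of low genes, over the 13766 genes that reached 1 FPKM in 3 or more libraries, with Benjamini-Hochberg adjustment; all 35 genes passed this filter. In data simulated at this design, it recovered 2 of 50 genes changed by 1.25-fold, 28 of 50 by 1.5-fold and 49 of 50 by 2-fold, and 4.44% of its calls were unchanged genes. The simulation changed only 50 genes at each fold size and gave all genes the same dispersion, 0.00732. In the data 967 genes rose and 1144 fell. With fewer changed genes the adjusted threshold is stricter, so recovery in the data can be higher than simulated. Near-identical copies were searched with BLAST+ 2.17.0 (at least 95% identity over 100 bases).

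The 35 genes, the other fatty acid and LXR genes and the marker lists were chosen with earlier results of these data known. Values in all libraries are given for genes that passed, for Srebf1, Srebf2, Insig1, Abca1, Abcg1, Scd1, Scd2 and Fasn, and for genes whose groups do not overlap; Fads2 was added after its values were seen, and the other fatty acid and LXR genes are named where they passed. Some other results are not reported here. The alternatives were another pseudocount (0.1), no filter or a stricter one, median-ratio scaling, quantile normalization, limma-voom, a robust variance, a replicate block, a B cell score, a cell cycle score (added after seeing the data) and each library left out.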

Additional observations from a re-analysis of the deposited data

How the results depend on the processing

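No sign of the 9 called genes changed under any of the 16 alternatives, but none of the 9 passed in all of them; of the values of the 35 genes, 466 kept their sign and side of the threshold, 67 lost a call, 13 gained one and 14 reversed. The 8 genes called higher became 2 with no filter on low values (more genes tested), 2 with a replicate block, 0 with the B cell score and 0 with the cell cycle score, and 0 to 16 with each library left out; the cause was not tested. Abcg1 was lost under the B cell score and without a filter (0 genes called lower), and the count was 0 to 1 with each library left out. The cholesterol synthesis enzymes called higher, 7 in the main analysis, were 1 with no filter, 1 with the block, 0 with either score and 0 to 10 with a library left out. The fatty acid genes called higher were 1 with limma-voom (Acaca) and 0 to 4 with a library left out. The median log2 change of the cholesterol enzymes was 0.22 to 0.33 over the libraries left out, that of the fatty acid genes 0.12 to 0.43 and -0.053 with the cell cycle score, and that of the LXR genes -0.24 to -0.12 and -0.266 with limma-voom. Reversed values, none past the threshold, were Srebf1 0.072 and Mylip -0.224 with the B cell score; Scap 0.003, Acat2 -0.001, Dhcr7 -0.056, Nr1h2 0.068, Fasn -0.032, Scd2 -0.074 and Fads2 -0.318 with the cell cycle score. With a library left out, Scap ran from -0.071 to 0.009, Mvk from -0.151 to 0.092, Mylip from -0.017 to 0.19 and Srebf1 from -0.082 to 0.03, none past the threshold. Same-numbered libraries of the 2 groups had deviations from their group means that correlated at -0.053, 0.006 and -0.215. Differently numbered ones correlated at -0.134 to 0.177. Whether the numbers pair the libraries is not stated, and with 3 libraries a group these values cannot decide it. The block moved the calls over all genes from 967 higher and 1144 lower to 625 and 657. The calls over all genes with no filter were 501 and 681, and with limma-voom 1166 and 1348. With 3 libraries a group, changes of the size seen here, mostly under 1.5-fold, were often missed in simulated data. Those data held far fewer changed genes than were called here, so the share missed in the real data can be smaller. For genes that vary more than those simulated it can be larger.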
